A study of Mnemiopsis leidyi with 31 samples.

Results

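The comparison set whole embryos of the comb jelly Mnemiopsis leidyi at 4 hours post fertilization (hpf) against whole embryos at 2 hpf, the interval between cleavage and early gastrulation. It used 6 of the 31 RNA-seq libraries of an hourly course over 9 hours, chosen by their labelled hour and library code. The 4 hpf libraries carried the codes 2013_24, 2013_34 and 2012_N4. The 2 hpf libraries carried the codes 2013_22, 2013_32 and 2013_42, and 1 further library labelled 2 hpf, 2012_N6, was left out because it resembled late hours, with r = 0.971 to 8 hpf 2012_N8B and 0.832 to 0.853 to the 3 other 2 hpf libraries. All embryos came from wild-caught animals, with no allele, transgene or drug in either group, and each library was made from polyadenylated RNA of a pool of 100 to 200 embryos. The submitters call the libraries of an hour biological replicates. No label says which libraries came from the same spawning, so a p-value here sets the hours against the spread between libraries, whatever its source.

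In ctenophores, as in most animals, the egg is loaded with maternal messenger RNA that serves the first divisions, and transcription from the embryo's own genome then adds new messages while maternal ones are degraded. Cleavage is stereotyped and separates large macromeres from small micromeres. At gastrulation the micromeres and their descendants spread over the macromeres. In whole-embryo RNA, a change in the number of cells of a type and a change of RNA per cell cannot be told apart. The transcript identifiers carry no gene names and none matched the gene table used here, so the labelled stages could not be checked against marker genes, no roles are given and no sequences are shown.

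The libraries held 22729706, 27642120 and 36388510 counts at 4 hpf and 23976532, 20733492 and 36168662 counts at 2 hpf. Levels are in CPM, the count divided by the library total after that total was scaled with its TMM factor. These factors ran from 1.13 to 1.17 at 4 hpf, and at 2 hpf they were 1.09 in 2013_22, 1.12 in 2013_32 and 0.543 in 2013_42. Each of the 6 libraries differed from each other one by more than counting noise.

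A pair of the 6 libraries stood apart. The deposited counts of 4 hpf 2012_N4, 116632427 in all, were below those of a library labelled 5 hpf, 2012_14, in 0 of 31067 transcripts. That library's counts, 68.8% of the total, were subtracted transcript by transcript. After subtraction 2012_N4 was below any other library in at least 814 transcripts. Across the 12094 transcripts tested, its log2(CPM + 1) values correlated most closely with 9 hpf 2012_37, at r = 0.982. Its correlation was 0.964 with 4 hpf 2013_34, 0.905 with 4 hpf 2013_24, and between 0.872 and 0.919 with the 2 hpf libraries. It was the only library of the comparison with a code of 2012, and whether its labelled hour is right was not tested. At 2 hpf, 2013_42 stood apart from the other 2 libraries, with r = 0.895 and 0.892, while 2013_22 and 2013_32 had r = 0.950 with each other. These correlations are descriptions across transcripts, which are not independent. Results are therefore also given for the libraries of 2013 alone and for the pairs 2013_24 over 2013_22 and 2013_34 over 2013_32, which hold neither 2012_N4 nor 2013_42. The 2 libraries of each such pair had closely alike levels, with r = 0.980 between 2013_24 and 2013_22 and r = 0.970 between 2013_34 and 2013_32. The 2 libraries of 2013 at 4 hpf had r = 0.938.

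**Figure D1:**
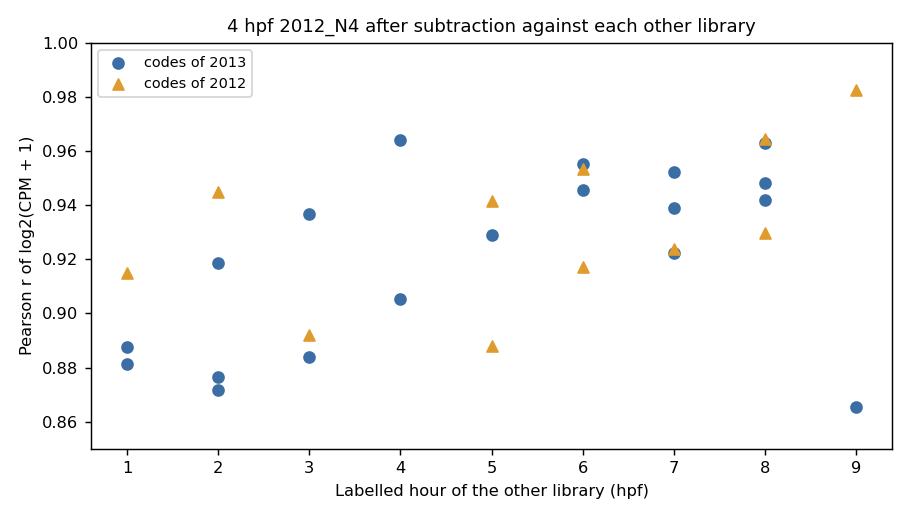
Pearson correlation of log2(CPM + 1) across 12094 transcripts between 4 hpf 2012_N4 after subtraction and each of the other 30 libraries, against the labelled hour of that library in hpf. Circles are libraries with codes of 2013 and triangles libraries with codes of 2012, and the highest point is 9 hpf 2012_37 at 0.982. The 1 hpf library 2012_N7 is shown after subtraction of 9 hpf 2012_37.

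Among the 6 libraries compared, the repertoire of transcripts was broader in each 4 hpf library than in each 2 hpf library. At 1 CPM or more there were 9949 transcripts in 2013_24, 11233 in 2013_34 and 12352 in 2012_N4 at 4 hpf, against 9364 in 2013_22, 9865 in 2013_32 and 8563 in 2013_42 at 2 hpf. The groups did not overlap, but the gap between 2013_24 at 4 hpf and 2013_32 at 2 hpf was small. The 2 hpf library left out, 2012_N6, had 14171, above every 4 hpf library. The 9 hpf library 2012_37, which 2012_N4 most resembled, had 12832. The means were 11178 ± 1202 at 4 hpf and 9264 ± 657 at 2 hpf (SD, n = 3 each). The difference of 1914 transcripts had p = 0.1 in a two-sided exact permutation test, the smallest p that 3 against 3 libraries allow. In the libraries of 2013 the difference was 1327 transcripts with p = 0.2, the smallest p that 2 against 3 allow in this exact test.

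The weight of the most abundant messages did not separate the hours. The 100 most abundant transcripts of each library held 24.6%, 22.1% and 22.3% of counts at 4 hpf, against 27.3%, 22.5% and 33.5% at 2 hpf. The highest share was that of 2013_42, and the share of 2013_32 at 2 hpf lay within the 4 hpf range. The difference of the means was -4.76 percentage points (exact permutation p = 0.2).

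Transcripts scarce in the first hour were read next. In 21267 transcripts with counts in the series but less than 1 CPM in both 1 hpf libraries of 2013, the share of counts was 0.630% in 2013_24, 1.68% in 2013_34 and 2.69% in 2012_N4 at 4 hpf. At 2 hpf the share was 0.136% in 2013_22, 0.871% in 2013_32 and 0.0450% in 2013_42. Within each pair the share was higher at 4 hpf, but 2013_32 at 2 hpf exceeded 2013_24 at 4 hpf. The number of these transcripts at 1 CPM or more was 620, 1888 and 2942 at 4 hpf, and 144, 769 and 206 at 2 hpf, with the same overlap. The shares differed by 1.32 percentage points on average (exact permutation p = 0.2), and by 0.805 in the libraries of 2013 (exact permutation p = 0.4).

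A narrower set marked the late course. Its 288 members had less than 1 CPM in each 1 hpf library of 2013 and at least 10 CPM in each of the 3 libraries of 2013 at 8 hpf. At 4 hpf, 143 of them reached 1 CPM in 2013_24, 275 in 2013_34 and 288 in 2012_N4. At 2 hpf, 12 reached it in 2013_22, 166 in 2013_32 and 29 in 2013_42. The set took 0.187%, 0.746% and 1.21% of counts at 4 hpf and 0.00865%, 0.325% and 0.00554% at 2 hpf. The 2 hpf library 2013_32 thus held more of the late set than the 4 hpf library 2013_24, while within each code series the 4 hpf library held more. The 1 hpf libraries that defined the set share code series with 2013_22, 2013_24 and 2013_42, but not with 2013_32 or 2013_34. A lasting difference between code series and a difference in stage were not told apart here. The same holds for the wider set above. The difference of means was 0.600 percentage points (exact permutation p = 0.2).

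**Figure D2:**
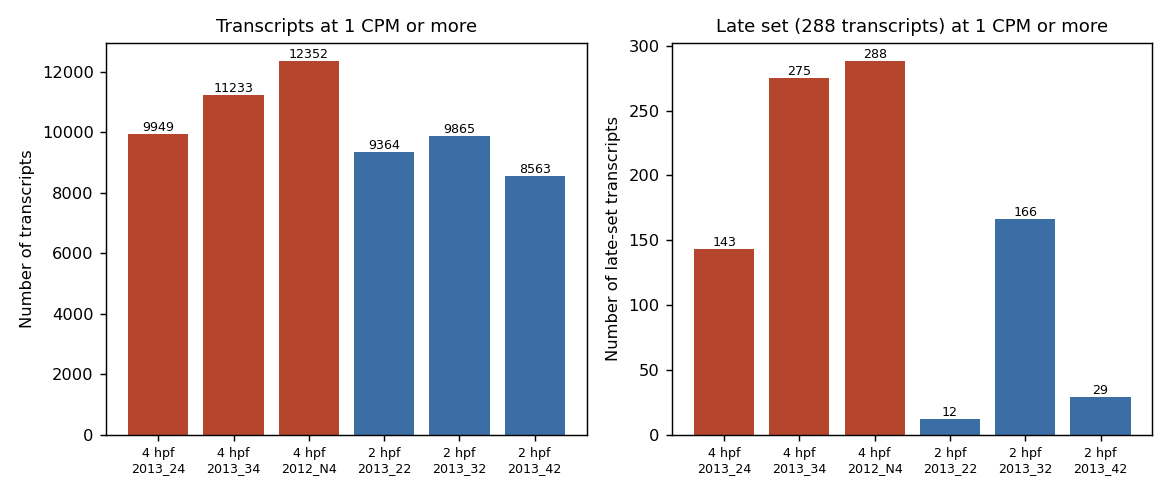
Number of transcripts at 1 CPM or more (left) and number of the 288 late-set transcripts at 1 CPM or more (right). Each of the 6 libraries compared is shown, with 4 hpf in red and 2 hpf in blue. The 4 hpf libraries lie above the 2 hpf libraries on the left, while on the right 2 hpf 2013_32 with 166 lies above 4 hpf 2013_24 with 143.

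Whether single transcripts passed a test depended on the tool and the libraries. Of 12094 transcripts tested, 0 were higher at 4 hpf and 0 lower at an adjusted p under 0.05 (edgeR's quasi-likelihood test with Benjamini-Hochberg adjustment), which is 0% in each direction. The lowest adjusted p of this edgeR fit was 0.839 and the biological coefficient of variation was 0.729. At an unadjusted p under 0.05 there were 478 transcripts higher at 4 hpf, 3.95% of those tested, and 61 lower, 0.504%. With limma the adjusted counts were also 0 and 0, with 874 and 17 at an unadjusted p under 0.05. DESeq2 called 104 transcripts higher and 0 lower, with 897 and 145 at an unadjusted p under 0.05. Of those 104, 58 belonged to the late set, as did 2.03% of all transcripts tested. The 104 were called for low levels at 2 hpf and the late set was chosen for low levels at 1 hpf. Their overlap therefore follows in part from the choice. Without 2 hpf 2013_32, edgeR called 49 transcripts higher and 0 lower, and with no filter on low counts it called 415 higher and 194 lower of 28988.

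Those 49 transcripts had a median level of 23.1 CPM in 2013_24, 53.3 in 2013_34 and 57.8 in 2012_N4 at 4 hpf. Their medians at 2 hpf were 0.115 CPM in 2013_22 and 0.0509 in 2013_42, but 37.5 in the library left out, 2013_32. In that library they were therefore at a level between those of 2 libraries of 4 hpf.

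The separation of the 3 against 3 libraries was lopsided towards higher levels at 4 hpf. All 3 values at 4 hpf exceeded all 3 at 2 hpf for 907 transcripts, 7.5% of those tested, and all 3 lay below them for 335, 2.77%. With a gap of at least 2-fold between the groups, 144 transcripts were higher and 0 lower. The median log2 fold change of all 12094 was 0.10 with TMM, 0.08 with RLE factors and 0.34 with library totals, so directions of small changes depend on the scaling. In the libraries of 2013, edgeR's test again called 0 higher and 0 lower of 12220, and 65 higher (0.532%) and 2 lower (0.0164%) had an unadjusted p under 0.05. There, 1049 transcripts (8.58%) were higher without overlap and 461 (3.77%) lower. With labels dealt at random, a transcript separates in either direction with probability 0.2 for 2 against 3 libraries and 0.1 for 3 against 3. The shares of these comparisons are therefore not alike in weight, and they are descriptions. DESeq2 called 7 higher and 0 lower in the libraries of 2013, and these 7 were among its 104.

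The 2 transcripts with the smallest unadjusted p among those with a mean of 10 CPM or more at 4 hpf that were higher there without overlap, and in both pairs, were Mle_026554 and Mle_022422. Neither passed the adjusted threshold in the filtered edgeR fit. Both passed it with DESeq2 (adjusted p = 2.91e-05 for each) and in edgeR with no filter on low counts (adjusted p = 2.62e-11 and 1.63e-13). In every other setting neither passed. With limma the adjusted p was 0.670 for each, and in edgeR with the code series as a block it was 0.294 and 0.545. Mle_026554, a transcript of 2031 bases, had 0.508 CPM in 2013_24, 17.4 in 2013_34 and 33.9 in 2012_N4 at 4 hpf, against 0 in 2013_22, 0.0430 in 2013_32 and 0 in 2013_42 at 2 hpf. That was 1993 counts over the 4 hpf libraries and 1 count over the 2 hpf libraries. The 4 hpf values spread widely, and the lowest was the one in 2013_24. The fitted log2 fold change was 9.83 (SE 1.96, unadjusted p = 0.00149, adjusted p = 0.839 in edgeR's test), a size that depends on the prior count since the 2 hpf libraries were at or near 0. Later in 2013 it had 0.806 CPM in the 5 hpf library, below its 4 hpf mean of 8.95 CPM in the libraries of 2013, and its mean was 41.5 CPM at 6 hpf, 43.6 at 7 hpf and 25.5 at 8 hpf.

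Mle_022422, of 2543 bases, had 0.625, 17.7 and 53.0 CPM in the same 4 hpf libraries, against 0.0384, 0 and 0.0509 CPM at 2 hpf, or 2810 against 2 counts. The order of the 4 hpf libraries was the same as for Mle_026554. Its fitted log2 fold change of 9.46 (SE 1.90) had an unadjusted p of 0.00153 in edgeR's test. It had 1.56 CPM in the 5 hpf library of 2013, below its 4 hpf mean of 9.15 CPM in that year, and its mean was 20.3 CPM at 6 hpf, 43.8 at 7 hpf and 61.3 at 8 hpf.

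Among transcripts lower at 4 hpf by the same rule, Mle_013402 and Mle_005782 had the smallest p. Mle_013402, of 1732 bases, had 65.3 CPM in 2013_24, 79.0 in 2013_34 and 57.8 in 2012_N4 at 4 hpf, against 132, 106 and 154 CPM in 2013_22, 2013_32 and 2013_42 at 2 hpf. The groups were tight, at 67.4 ± 10.8 CPM for 4 hpf and 130 ± 23.9 CPM for 2 hpf (SD, n = 3 each). The log2 fold change was -0.95 (SE 0.28, unadjusted p = 0.0107 and adjusted p = 0.839 in edgeR's test). Its mean in the libraries of 2013 was 204 CPM at 1 hpf and 115 at 3 hpf, and 47.7 in the single library at 5 hpf, before 96.2 at 6 hpf and 149 at 7 hpf.

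Mle_005782, of 1018 bases, had 47.3, 35.6 and 18.1 CPM at 4 hpf, against 58.4, 77.4 and 180 CPM at 2 hpf. Its separation was widest between 2012_N4 and 2013_42. The log2 fold change was -1.65 (SE 0.55, unadjusted p = 0.0191 in edgeR's test), with means of 33.7 ± 14.7 CPM at 4 hpf and 105 ± 65.4 CPM at 2 hpf (SD, n = 3 each).

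In the libraries of 2013 the same rule named Mle_022302 and Mle_029701 as higher at 4 hpf. Mle_022302, of 1006 bases, had 0.899 CPM in 2013_24 and 21.1 in 2013_34 at 4 hpf, against 0.0768, 0.0861 and 0 CPM at 2 hpf. Mle_029701, of 845 bases, had 0.938 and 38.4 CPM at 4 hpf, against 0.345, 0.387 and 0.204 CPM at 2 hpf. In both, the level in 2013_34 was far above that in 2013_24, where Mle_022302 had 23 counts and Mle_029701 had 24. Their log2 fold changes were 7.45 (SE 1.78) and 5.90 (SE 1.51), with adjusted p = 1.00 for each in edgeR's test. Without 2013_34 they were 3.87 and 1.54. With DESeq2 the adjusted p was 0.0226 for Mle_022302 and 0.0285 for Mle_029701. In edgeR with no filter on low counts the adjusted p was 0.000158 and 9.47e-05, and with limma it was 0.947 for each. On the lower side the rule named Mle_013402 again, at -0.89 (SE 0.35), and Mle_030506, of 871 bases. Mle_030506 had 39.9 and 34.8 CPM at 4 hpf, against 57.0, 63.6 and 87.6 CPM at 2 hpf, for a log2 fold change of -0.93 (SE 0.36). Its mean in 2013 stood at 106 CPM at 1 hpf and 53.5 at 3 hpf, and between 30.1 and 45.8 CPM at the hours from 5 to 9.

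**Figure D3:**
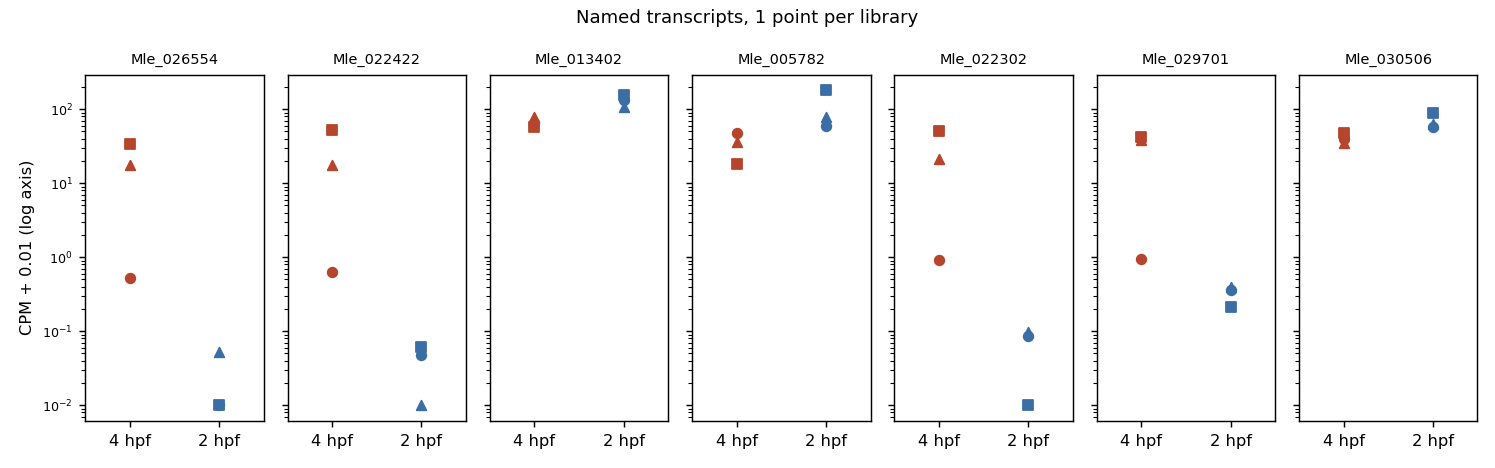
CPM + 0.01 on a log axis for the 7 named transcripts, 4 hpf in red on the left and 2 hpf in blue on the right of each panel, 1 point per library. Circles are 2013_24 and 2013_22, triangles 2013_34 and 2013_32, and squares 2012_N4 and 2013_42. In the 4 transcripts higher at 4 hpf, the circle of 2013_24 lies below 1 CPM and the other 4 hpf points lie above 10 CPM.

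The direction was then read in each code series, which has 1 library per hour and so no test. A transcript was counted where the higher library had at least 5 CPM and the levels differed at least 4-fold. Between 2013_24 at 4 hpf and 2013_22 at 2 hpf, 150 of 8010 transcripts were higher at 4 hpf (1.87%) and 1 was lower (0.0125%). Between 2013_34 at 4 hpf and 2013_32 at 2 hpf, 427 of 8423 were higher (5.07%) and 12 lower (0.142%). Both pairs leaned the same way, towards transcripts higher at 4 hpf. Most transcripts hardly moved, with a median log2 fold on CPM + 1 of 0.0016 in the first pair and -0.03 in the second. The 1 transcript lower in the first pair, Mle_000689, was named after its values were seen. It had 2.07 CPM in 2013_24, 4.02 in 2013_34 and 7.51 in 2012_N4 at 4 hpf, against 13.6, 1.94 and 33.1 CPM at 2 hpf, so the second pair went the other way.

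Each list was then read for the other. Of 7654 transcripts with 5 CPM or more in the higher library of each pair, 12 were 4-fold higher in both (0.157%), which is 8% of the first list and 2.81% of the second. Of the first list, 138 were among these 7654 (1.80%), and of the second 60 (0.784% of the 7654). Only these could be 4-fold higher in both, so the 12 are to be read against 138 and 60. The other members of each list were below 5 CPM in both libraries of the other pair. At a threshold of 2-fold, 190 transcripts were higher at 4 hpf (2.37%) and 16 lower (0.2%) in the first pair, and 692 higher (8.22%) and 89 lower (1.06%) in the second. At this threshold 47 were higher in both (0.614%) and 2 lower (0.0261%), while 40 were higher in the first pair and lower in the second. Across the 7654 transcripts the log2 folds of the pairs had Pearson r = 0.0585 and Spearman rho = 0.143, as a description. Both pairs were higher at 4 hpf for 1769 of them and both lower for 2450. In the first pair 3809 (49.8%) were higher and 3845 lower, and in the second 3164 (41.3%) and 4490. These shares bear on both counts, so 2450 against 1769 is not by itself a shared fall.

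**Figure D4:**
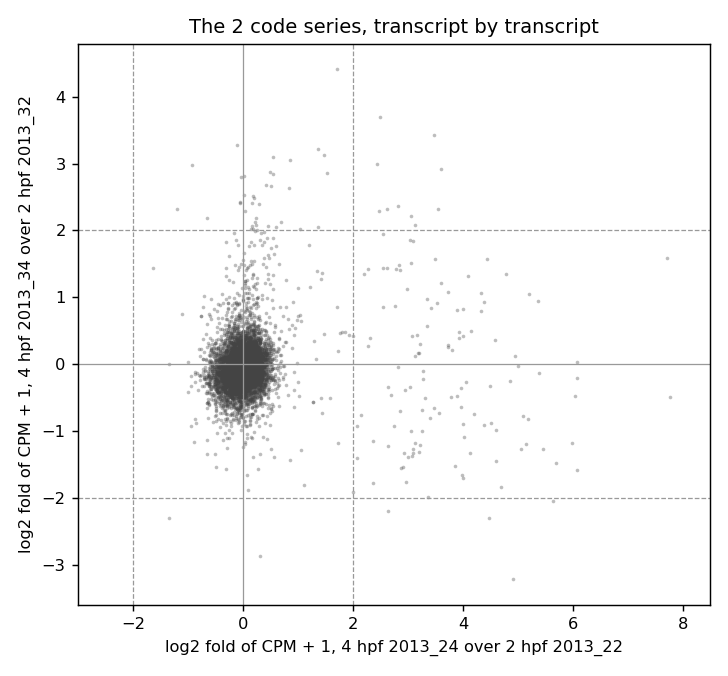
Log2 fold of CPM + 1 between 4 hpf 2013_34 and 2 hpf 2013_32 (vertical) against that between 4 hpf 2013_24 and 2 hpf 2013_22 (horizontal), 1 point for each of 7654 transcripts. Dashed lines mark a 4-fold difference on this scale. Most points lie near 0, one arm runs to the right at about 0 on the vertical axis and another upward at about 0 on the horizontal axis.

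The 2 transcripts at least 2-fold lower at 4 hpf in both pairs were also named after their values were seen. Mle_029573 had 6.29 CPM in 2013_24 and 7.00 in 2013_34 at 4 hpf, against 13.2 in 2013_22 and 14.2 in 2013_32 at 2 hpf. Mle_029889 had 138 and 21.4 CPM in those 4 hpf libraries, against 356 and 109 CPM at 2 hpf. The remaining 2 libraries did not follow. Mle_029573 had 10.9 CPM in 4 hpf 2012_N4 against 3.62 in 2 hpf 2013_42, and Mle_029889 had 145 against 52.2 CPM.

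The 150 transcripts of the first pair were already present in the other series at 2 hpf. Their median level at 4 hpf was 14.8 CPM in 2013_24, 21.4 in 2013_34 and 24.1 in 2012_N4. At 2 hpf it was 0.288 CPM in 2013_22, which chose them, 0.102 in 2013_42 and 19.5 in 2013_32. In 2013_32, 147 of the 150 reached 1 CPM, compared with 42 in 2013_22 and 34 in 2013_42. In the second pair, 67 of them (44.7%) were higher at 4 hpf and 83 lower, with a median log2 fold on CPM + 1 of -0.21. Over all transcripts tested 53.0% were higher in the second pair. In 2012_N4 over 2013_42, which took no part in the choice, 150 of 150 were higher at 4 hpf and 126 at least 4-fold. Over all transcripts tested 62.1% were higher in 2012_N4 than in 2013_42. In that pair 20.7% of transcripts at 5 CPM or more were 4-fold higher and 7.42% 4-fold lower, and both of its libraries stood apart. The 9 hpf library 2012_37, which 2012_N4 most resembled, had a median of 16.1 CPM for this list, so 4 hpf and a later hour cannot be told apart in this reading or in those of 2012_N4 that follow.

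The first list was low at 1 hpf in the libraries of 2013 and higher from 5 hpf on, and the series 2013_3 was already at such higher levels at 2 and 3 hpf. Its median in 2013 was 0.177 and 0.0635 CPM in the 1 hpf libraries, and 3.55 CPM in 2013_23 and 23.8 in 2013_33 at 3 hpf. It was 27.3 CPM in the 5 hpf library, 26.1 and 42.5 at 6 hpf, 13.7 to 36.6 at 7 hpf, 11.9 to 26.7 at 8 hpf and 18.4 at 9 hpf. In 7 hpf 2013_17 and 8 hpf 2013_18, the lowest of these, all transcripts tested had higher medians, of 16.3 and 16.5 CPM. In the other libraries of 2013 from 5 hpf on, the list lay above all transcripts tested. Among hours outside the comparison, the highest mean fell at 5 hpf for 49 transcripts (32.7%), at 6 hpf for 48 (32%) and at 9 hpf for 42 (28%). Over all transcripts tested the shares were 17.9%, 9.32% and 30.5%. Of the 150, 116 (77.3%) had less than 1 CPM in each 1 hpf library of 2013, against 19.7% of the transcripts tested. The late set held 49 of the 150 (32.7%), beside 2.03% of the transcripts tested and 0.64% of the 7654 above. All 8 hpf libraries of 2013 exceeded all 1 hpf libraries in 146 of them (97.3%), against 27.1% of the transcripts tested.

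The 427 transcripts of the second pair were still scarce in 2013_24. Their median level at 4 hpf was 1.21 CPM in 2013_24, 11.2 in 2013_34 and 19.3 in 2012_N4. At 2 hpf it was 0.345 CPM in 2013_22, 1.33 in 2013_32 and 0.0509 in 2013_42. In the first pair 381 of the 427 (89.2%) were higher at 4 hpf and 46 lower, beside 56.6% higher over all transcripts tested. Only 12 were 4-fold higher, and the median log2 fold on CPM + 1 was 0.41, against 0.04 over all transcripts tested. In 2012_N4 over 2013_42, 423 (99.1%) were higher at 4 hpf and 390 at least 4-fold, beside 62.1% higher over all transcripts tested.

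The medians of the second list were highest at the end of the course. Its median in 2013 was 0.530 and 0.318 CPM at 1 hpf, 0.438 in 2013_23 and 4.79 in 2013_33 at 3 hpf, and 3.46 at 5 hpf. It reached 9.33 and 24.1 CPM at 6 hpf, 11.1 to 35.04 at 7 hpf, 16.8 to 31.7 at 8 hpf and 46.2 at 9 hpf. The highest mean outside the comparison fell at 9 hpf for 355 of the 427 (83.1%), at 8 hpf for 41 and at 5 hpf for 0. Over all transcripts tested, 30.5% had theirs at 9 hpf and 17.9% at 5 hpf, and each of these hours has 1 library of 2013. Of the list, 156 transcripts (36.5%) belonged to the late set, beside 2.03% of all transcripts tested. They made up 54.2% of that set, and the first list held 17.01% of it. In both lists a transcript could only enter through a high level at 4 hpf, so low values at 1 and 2 hpf follow in part from the choice.

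**Figure D5:**
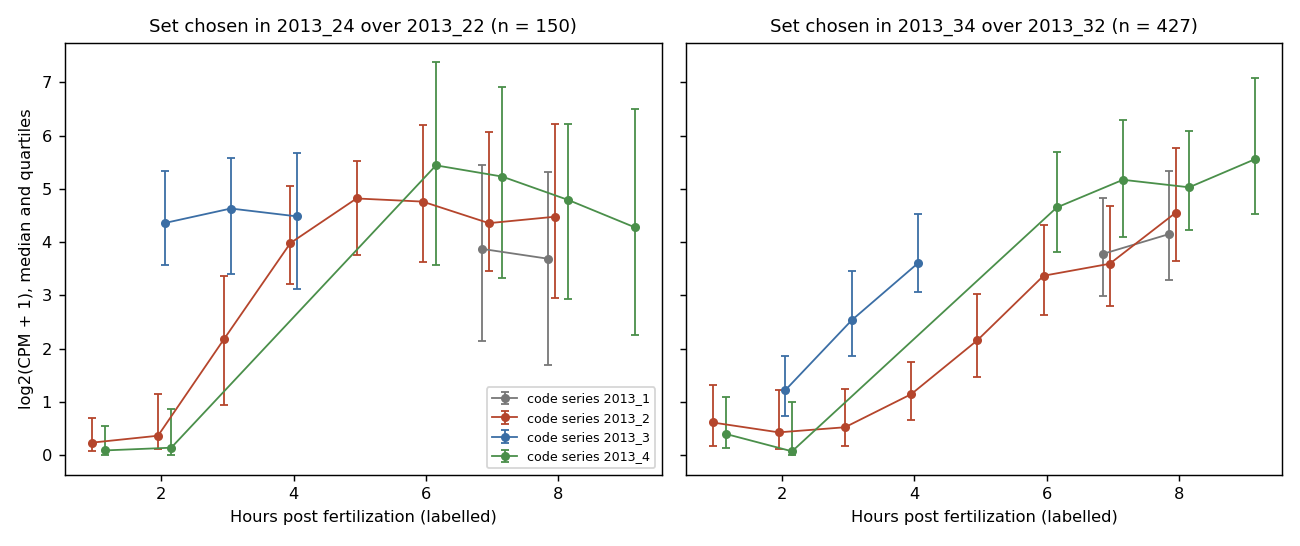
Median and quartiles (bars) of log2(CPM + 1) against the labelled hour, by code series of 2013, for the 150 transcripts chosen in 2013_24 over 2013_22 (left) and the 427 chosen in 2013_34 over 2013_32 (right). Points are shifted sideways so that they do not cover each other. On the left the series 2013_3 (blue) is high from 2 hpf on, and on the right series 2013_3 lies above series 2013_2 (red) at 2, 3 and 4 hpf.

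The 47 transcripts at least 2-fold higher in both pairs had a median of 8.87 CPM in 2013_24, 62.4 in 2013_34 and 76.7 in 2012_N4 at 4 hpf, against 0.499, 15.8 and 0.153 CPM in 2013_22, 2013_32 and 2013_42 at 2 hpf. In 2012_N4 over 2013_42, 47 of 47 were higher at 4 hpf and 43 at least 4-fold, beside 62.1% higher over all transcripts tested. Again the 2 hpf library 2013_32 lay above the 4 hpf library 2013_24, and at 3 hpf the code series also differed, with a median of 1.58 CPM in 2013_23 and 40.5 in 2013_33. At 8 hpf the medians were 60.8, 101 and 125 CPM, and at 9 hpf 194. Of the 47, 21 (44.7%) belonged to the late set, beside 2.03% of the transcripts tested and 0.64% of the 7654. The 47 were chosen for lower levels at 2 hpf and the late set for low levels at 1 hpf. This overlap therefore follows in part from the choice.

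Transcripts abundant in the first hour were more often lower than higher at 4 hpf, and scarce ones more often higher. They were classed by their mean in the 1 hpf libraries of 2013, which the comparison did not use. No 1 hpf library shares the code series of 2013_32 and 2013_34. Of 2753 tested transcripts under 1 CPM at 1 hpf, 602 (21.9%) were higher at 4 hpf without overlap and 5 lower. From 1 to under 10 CPM, 206 of 2630 were higher and 10 lower. From 10 to under 100 CPM, 86 of 4335 (1.98%) were higher and 152 (3.51%) lower. At 100 CPM or more, 13 of 2376 (0.547%) were higher and 168 (7.07%) lower. A transcript that was scarce at 2 hpf passed the filter on low counts only through 4 hpf, so the count for the lowest class is a description. In each higher class, the share separated in both directions together was below the 0.1 of labels dealt at random. Those counts are descriptions too.

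The abundant class was shifted in the 6 libraries together more than in either pair. Its median log2 fold change was -0.36 over the 6 libraries, beside 0.10 for all transcripts, but the median log2 fold on CPM + 1 was -0.02 in the first pair and -0.05 in the second. These 2376 transcripts took 77.7%, 76.4% and 75.6% of counts at 4 hpf, against 79.3% in 2013_22, 78.2% in 2013_32 and 88.7% in 2013_42 at 2 hpf. The highest share was that of 2013_42, and the other 5 libraries ran from 75.6% to 79.3%. The share was lower at 4 hpf in both pairs.

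Length was read last. The second list had a median length of 2752 bases and the first list 2223.5, against 2221 for the 7654 transcripts with 5 CPM or more in each pair and 2032 for all transcripts tested. CPM carries no length correction, so the minimum of 5 CPM itself bears on length. By quartile of length, from short to long, 58, 68, 96 and 175 tested transcripts belonged to the second list, and 39, 27, 36 and 48 to the first. Transcripts higher at 4 hpf without overlap numbered 199, 174, 220 and 314, and those lower 89, 106, 79 and 61. Longer transcripts collect more counts at the same number of molecules, and whether this played a part was not tested.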

How the data were processed

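The authors deposited whole-number read counts for 31067 transcripts in 31 libraries. Bowtie2 and SAMtools are named, without version or role, per the submitters' processing notes. The reference is not given in the sources used here, nor is the counting rule, and counts of near-identical transcripts are therefore uncertain. Per the labels' protocols, libraries were made with ScriptSeq V2 and 15 PCR rounds. They had no molecular identifiers. The deposited RPKM table was not used.

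Counts were taken as deposited, except that 5 hpf 2012_14 was subtracted from 4 hpf 2012_N4, and 9 hpf 2012_37 from 1 hpf 2012_N7. The counts of 2012_37 were 83.7% of those deposited for 2012_N7, which took no part in the 6-library fit. Transcripts were filtered with filterByExpr by hour and scaled with TMM. They were tested with edgeR 4.0.16 in R 4.3.3 (glmQLFit, glmQLFTest, Benjamini-Hochberg, threshold 0.05). The same steps were run on counts simulated without outlying libraries, code series or a subtracted column. That run does not show how the fit performs on these libraries. DESeq2 1.42.0, limma 3.58.1 on log2(CPM + 1), other scalings, filters and libraries were alternatives. SE is the absolute log2 fold change over the square root of F. CPM in the text is on the scale of the 6-library fit. Single values per library were compared with exact permutation tests (scipy 1.17.1).

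Named transcripts had at least 10 CPM on average in the higher group, no overlap between groups and the same direction in both pairs. None passed the threshold in the filtered edgeR fit, so the 2 with the smallest unadjusted p in each direction were taken. The libraries, lists and rules were chosen with earlier results of these data known. Library 2 hpf 2012_N6 was left out of the main comparison, per its rule.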

Additional observations from a re-analysis of the deposited data

Results flagged for a closer look

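Of 14 values read over the 4 libraries labelled 2 hpf, 6 had 1 library far from the others, each time 2012_N6. The rate that chance gives, about 1 in 20, does not apply. That library was left out because it resembled late hours, and the named transcripts higher at 4 hpf were chosen for low levels in the other 2 hpf libraries, so the values are a description. The gap to the nearest library, as a share of the whole range, was 0.854 for the share of counts in the late set, where 2012_N6 had 2.20% and the other 2 hpf libraries at most 0.325%. It was 0.855 for the transcripts under 1 CPM at 1 hpf, where 2012_N6 had 5.73%. For the named transcripts the gap was 1.00 for Mle_022302, 0.999 for Mle_022422, 0.983 for Mle_026554 and 0.995 for Mle_029701. Their levels in 2012_N6 were 292, 51.0, 2.49 and 35.2 CPM.

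A group of 7 transcripts was at least 4-fold higher at 4 hpf in the first pair and at least 4-fold lower at 4 hpf in the second. This difference was not tested, since each pair has 1 library per hour. Their median level was 22.1 CPM in 2013_24, 3.04 in 2013_34 and 6.23 in 2012_N4 at 4 hpf, against 0.154 CPM in 2013_22, 22.7 in 2013_32 and 0.102 in 2013_42 at 2 hpf. At 3 hpf the median was 3.55 CPM in 2013_23 and 6.25 in 2013_33, and it was 17.3 CPM in 5 hpf 2013_25.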

How the results depend on the processing

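With no filter on low counts, edgeR called 415 transcripts higher and 194 lower at 4 hpf in the 6 libraries, and 73 and 46 in the libraries of 2013. DESeq2 called 104 and 7 higher. Leaving out each library in turn gave 0 to 49 higher and 0 lower in the 6 libraries, the 49 without 2 hpf 2013_32, and 0 in the libraries of 2013. Other scalings, a stricter filter, limma, 2012_N4 as deposited, 2012_N6 added, all hours in 1 fit, and 2012_N4 and 2013_42 both left out (chosen after seeing the data) gave 0 in both directions.

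The code series 2013_2 and 2013_3 share a number across hours, and no label says that it marks a shared spawning. Deviations from the hour's mean correlated at 0.477 and 0.352 within the series, and with 2 libraries of 2013 at 4 hpf the values across series are the same with the sign turned. With the series as a replicate block edgeR called 0 and 0 in the 6 libraries and in those of 2013. In these fits every library outside 2013_2 and 2013_3 was alone in its series, so only those pairs bore on the hour. The pairs leave almost no spread to test against, so these counts of 0 do not show whether the hours differ. When all 19 libraries of 2013 entered, the block fit called 63 higher and 0 lower.

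At 1 CPM in place of 5, the first pair had 461 transcripts higher and 2 lower, and the second 1237 and 24. At 2-fold, the first had 16 lower, and the second 692 higher and 89 lower. Without 1 library each, the difference between hours ran from 1327 to 2528.5 transcripts at 1 CPM, -7.39 to -1.88 points in the 100 most abundant, 0.354 to 0.864 in the late set and 0.805 to 1.83 in transcripts under 1 CPM at 1 hpf. With 2012_N6 added these differences were 687.25, -3.33, 0.0790 and -0.0275 (exact permutation p = 0.629, 0.4, 0.971 and 0.971). Mle_022422 had a log2 fold change of -0.10 with all 31 libraries as deposited. The cause of these changes was not tested. At 2 hpf, 1 count stood for 0.0430 CPM in 2013_32 and 0.0509 CPM in 2013_42, so 2 hpf levels near those values rest on single counts.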
